A study of Mus musculus with 18 samples.

Results

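The 9 genes Nmrk1, Nmrk2, Nampt, Nmnat1, Nmnat3, Naprt, Qprt, Nadsyn1 and Nnmt, which code for enzymes that make, salvage or divert precursors of nicotinamide adenine dinucleotide (NAD), were followed across 3 metabolic tissues of mice fed a high-salt diet. They were 9 of the 21899 genes measured, and they were chosen by pathway and by the lower FPKM of Nmrk2 in HSD muscle in these same libraries, so their diet values in muscle are given as a description without a test. Total RNA depleted of ribosomal RNA was sequenced in 18 libraries from liver, epididymal white adipose tissue (eWAT) and quadriceps muscle. Each tissue had 3 control (CON) and 3 high-salt diet (HSD) libraries. All mice were wild-type C57BL/6 males of 18 weeks, and no transgene or deletion was named for any group. The HSD groups had the diet for 12 weeks. By the study's methods HSD mice also drank saline where CON mice had chow and tap water, so salt in food and salt in water cannot be told apart. Library codes end in L for liver, W for eWAT and M for muscle, and codes that share a stem (CON16L, CON16W, CON16M) were taken to be 1 mouse. By these codes CON16, CON72, HS2 and HS5 gave 3 tissues, CON71 and HS3 gave eWAT and muscle, and CON14 and HS4 gave liver alone. Values are FPKM, counts of sequenced fragments scaled to the length of the gene and to the size of the library, which allows levels of different genes to be compared per length. These are bulk tissues, so fewer cells of a type and less RNA per cell cannot be told apart.

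NAD carries electrons in glycolysis, fatty acid oxidation and respiration, and it is also consumed as a substrate by sirtuins, poly(ADP-ribose) polymerases (PARPs) and CD38, so cells have to remake it. Nicotinamide released by these enzymes is returned to NAD by NAMPT, the rate-limiting enzyme of salvage, and an NMNAT enzyme. Nicotinamide riboside enters through the kinases NMRK1 and NMRK2, nicotinic acid through NAPRT, and tryptophan through the kynurenine pathway and QPRT, the latter 2 routes ending at the NAD synthetase NADSYN1. NNMT takes nicotinamide out of this cycle by methylating it with S-adenosylmethionine. Liver is known for the tryptophan route, NMRK2 as a kinase of striated muscle, and NNMT as an abundant enzyme of adipose tissue and liver.

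Each tissue carried the markers of its label: hepatocyte markers summed to 17102 to 88509 FPKM in liver, adipocyte markers to 7194 to 23426 FPKM in eWAT and skeletal muscle markers to 47590 to 60244 FPKM in muscle. Some libraries also departed from their tissue in ways that touch the values below. Library totals ran from 7628072 to 16637489 fragments. Among liver libraries, the share of fragments on the 13 mitochondrially encoded genes ran from 15.4% to 60.8%, against 3.52% to 5.11% in eWAT and 11.3% to 16.5% in muscle. The liver library CON16L held skeletal muscle markers, with a summed level of 4003 FPKM where the other 5 liver libraries held 1.93 to 5.18 FPKM. The eWAT library HS3W held epididymal epithelium markers at a summed 19368 FPKM, against 1.27 to 13.9 FPKM in the other 5 eWAT libraries, and its adipocyte markers summed to 7194 FPKM, against 16945 to 23426 FPKM. Separate mice gave the libraries of a group, as the codes show.

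The promoters of Nmrk2, the riboside kinase gene of muscle, and of its paralog Nmrk1 are shown because the 2 genes had opposite tissue patterns. The sequences are from the RefSeq promoter table for GRCm38.p6, which matched 7 of the 9 genes (Nmrk1, Nmrk2, Nampt, Nmnat1, Nmnat3, Qprt and Nadsyn1). Naprt and Nnmt had no entry. The windows of 250 bases before the start of transcription were searched on both strands for 3 short motifs. The first was the TATA box, spelled TATAAA. The second was the GC box, spelled GGGCGG. The third was an E-box form that myogenic factors bind, spelled CAGCTG. No match overlaps another in what is printed. The part of each window outside the annotated gene is printed 5′ to 3′ on the strand of the gene, with matches in capitals. The Nmrk1 stretch is chr19:18631766-18631949 on the plus strand and the Nmrk2 stretch is chr10:81202052-81202287 on the minus strand.
Nmrk1: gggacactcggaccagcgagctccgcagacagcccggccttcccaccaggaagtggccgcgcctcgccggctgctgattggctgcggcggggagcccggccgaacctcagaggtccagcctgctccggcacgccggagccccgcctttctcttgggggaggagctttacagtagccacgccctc
Nmrk2: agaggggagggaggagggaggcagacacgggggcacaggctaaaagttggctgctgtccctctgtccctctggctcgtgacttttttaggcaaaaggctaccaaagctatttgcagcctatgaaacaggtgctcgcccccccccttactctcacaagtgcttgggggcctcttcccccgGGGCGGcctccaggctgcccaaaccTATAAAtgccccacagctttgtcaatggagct

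The Nmrk2 window held 1 TATAAA and 1 GGGCGG, and no CAGCTG. The Nmrk1 window held none of the 3. Of all 32851 windows of the same length, 12.4% held TATAAA, 32.7% held GGGCGG and 13% held CAGCTG. Nampt, on the plus strand of chromosome 12, had 5 matches to GGGCGG and 1 to CAGCTG in its window. That window, 32820085 to 32820334, lies inside the annotated gene, which begins at 32819545. Qprt, which was low in muscle, also had 1 CAGCTG. The windows of Nmnat1, Nmnat3 and Nadsyn1 also held GGGCGG. The window of Nmnat3 and most of that of Qprt likewise lie inside the annotated gene. The only TATAAA among the 7 genes was that of Nmrk2. A match describes letters in a window and not a bound site.

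In CON mice the levels of most of the 9 genes differed between tissues. Per length, the 3 highest of the 9 genes in CON liver were Naprt at 37.1 ± 10.8 FPKM, Qprt at 26.7 ± 11.7 FPKM and Nnmt at 21.1 ± 7.13 FPKM (SD, n = 3), whose library ranges overlapped. In CON eWAT Nnmt led at 103 ± 7.47 FPKM and Nampt followed at 30.5 ± 1.69 FPKM, with no overlap between them, and the remaining genes were at 6.64 FPKM or lower. In CON muscle Nmrk2 at 53.3 ± 18.5 FPKM and Nampt at 39.8 ± 4.09 FPKM led with overlapping ranges, and the third, Nmnat1, was at 6.02 ± 0.309 FPKM. Among the genes that feed NAD synthesis, Naprt and Qprt had the highest mean transcript levels in CON liver, Nampt in eWAT, and Nmrk2 with Nampt in muscle. In liver the range of Nmrk1, 10.1 to 19.4 FPKM, overlapped that of Qprt, 13.2 to 34.7 FPKM.

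**Figure D1:**
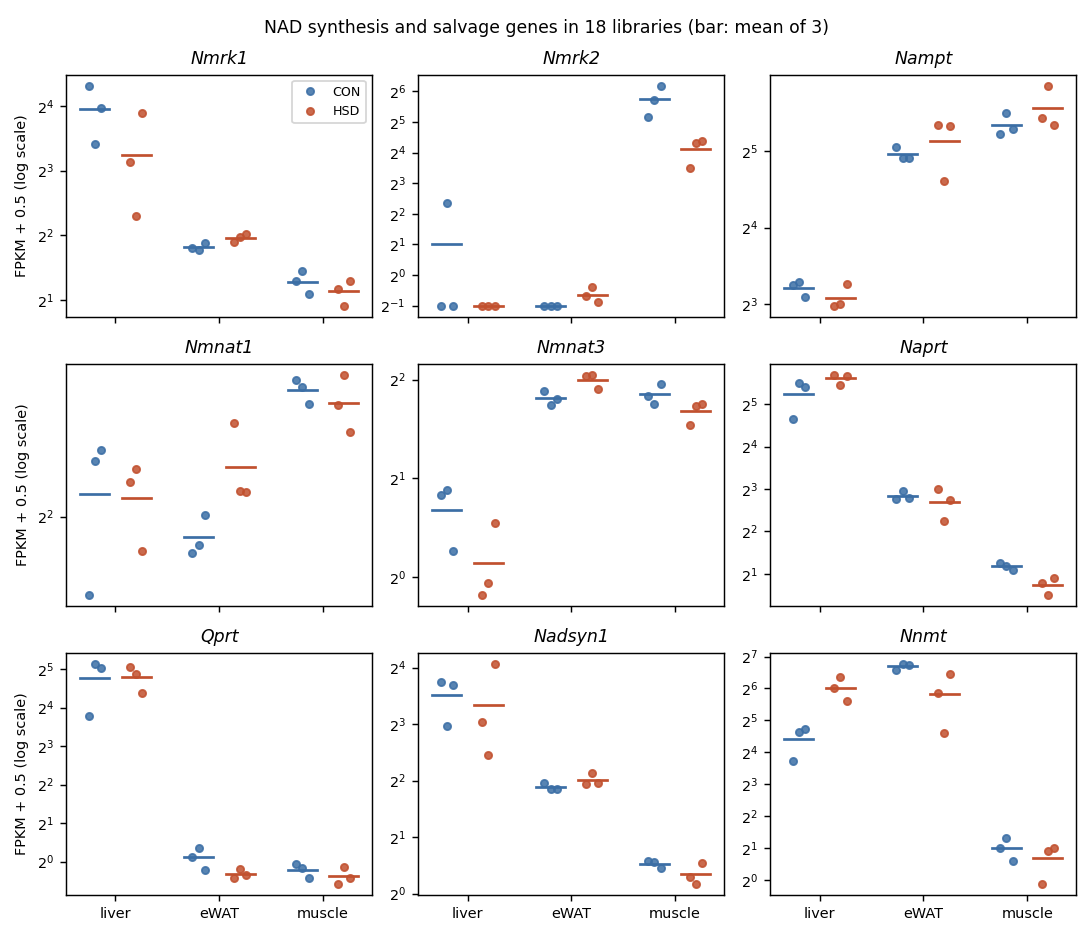
FPKM plus 0.5 on a log scale for each of the 9 genes in liver, eWAT and muscle, with 1 point per library, CON in blue and HSD in orange, and bars at the mean of 3 libraries. Nmrk2 sits above 35 FPKM in the 3 CON muscle libraries and between 10.7 and 20.3 FPKM in the 3 HSD muscle libraries, and Nnmt is higher in HSD than CON liver and lower in HSD than CON eWAT.

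Tissue differences were tested over the 9 CON libraries with limma on log2(FPKM + 0.5), with the mouse as a random block. A gene counted as called when its adjusted p was under 0.05 and it differed by 1 or more on the log2 scale in either direction, cutoffs that the study used too. Of the 9 genes, 8 were called between liver and muscle, where 50.0% of all 12637 genes tested were called. Between eWAT and muscle 4 were called, with 55.0% of all genes called, and between eWAT and liver 7 were called, with 69.3% of all genes called. Against these backgrounds the number called says little, and sizes and directions are given. FPKM is a share of a library, and the typical gene (median over all tested) differed on the log2 scale by −0.52 for liver against muscle, 0.93 for eWAT against muscle and 1.36 for eWAT against liver.

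The riboside kinases were split between tissues. Nmrk1 (chromosome 19, 18631950 to 18652428, plus strand) had 19.4, 10.1 and 15.2 FPKM in the 3 CON liver libraries, 2.92 to 3.19 FPKM in CON eWAT and 1.62 to 2.22 FPKM in CON muscle. It was higher in liver than in muscle by a log2 fold change of 2.62 (SE 0.21, adjusted p = 6.14e-06) and lower in eWAT than in liver by a log2 fold change of −2.07 (SE 0.21, adjusted p = 1.38e-05). Its eWAT and muscle levels were ordered by scaling, at 0.55 (SE 0.21) on the log2 scale as deposited and −0.28 after median-ratio scaling, and were not called. Nmrk2 (chromosome 10, 81198170 to 81202051, minus strand) had 35.5, 51.9 and 72.5 FPKM in CON muscle, from 871, 1140 and 1503 fragments. No fragment of Nmrk2 was counted in the 3 CON eWAT libraries. With 3 fragments per library as the limit that a count of 0 allows, 0.0973 to 0.107 FPKM, Nmrk2 was at least 498-fold higher in CON muscle than in CON eWAT.

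In liver, Nmrk2 had no fragment in CON14L, CON72L, HS2L, HS4L and HS5L, and 4.55 FPKM from 98 fragments in CON16L. CON16L was the liver library with skeletal muscle markers, of which 7 of 8 (leaving out Tnnc2, low in this muscle) stood at a median of 8.79% (range 1.57% to 29.2%) of their mean level in CON muscle, while 6 of 7 slow fibre markers (leaving out Atp2a2) stood at 46.0% (38.7% to 97.4%). Nmrk2 in this library stood at 8.53% of its CON muscle mean. Without CON16L, Nmrk2 was at least 251-fold higher in CON muscle than in CON liver, by the same limit of 3 fragments per library. Its called difference between liver and muscle (log2 fold change −5.55, SE 0.77) includes CON16L.

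Nampt (chromosome 12, 32819545 to 32853349, plus strand) was lower in liver than in the other tissues. Its values were 9.0, 9.32 and 8.02 FPKM in CON liver, 32.5, 29.6 and 29.5 FPKM in CON eWAT, and 36.7, 44.4 and 38.3 FPKM in CON muscle. The libraries of the 3 tissues did not overlap. Liver was below muscle by a log2 fold change of −2.11 (SE 0.16, adjusted p = 3.27e-06). eWAT was above liver by 1.74 (SE 0.16, adjusted p = 5.31e-06) as deposited, but by 0.13 (adjusted p = 0.427) after median-ratio scaling, so the place of eWAT depends on the scale used.

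The genes of the NMNAT enzymes, which turn nicotinamide mononucleotide into NAD, had smaller tissue differences as deposited, though not on every scale. Nmnat1 (chromosome 4, 149467572 to 149485202, minus strand), the nuclear enzyme, averaged 3.86 ± 1.22 FPKM in CON liver, 3.20 ± 0.289 FPKM in CON eWAT and 6.02 ± 0.309 FPKM in CON muscle (SD, n = 3). It was not called between any pair of tissues, and muscle libraries lay above all CON liver and eWAT libraries. After median-ratio scaling it was called lower in eWAT than in liver (−1.64) and than in muscle (−1.68). Nmnat3 (chromosome 9, 98287435 to 98420438, plus strand), described as the mitochondrial enzyme, averaged 1.11 ± 0.355 FPKM in CON liver, 3.01 ± 0.179 FPKM in CON eWAT and 3.11 ± 0.266 FPKM in CON muscle. It was lower in liver than in muscle by a log2 fold change of −1.20 (SE 0.17, adjusted p = 1.87e-04), and this was called in 14 of 18 settings. The call was lost at −0.75 with median-ratio scaling, −0.98 with a pseudocount of 1, −0.68 without mitochondrially encoded genes and −0.99 without CON72L.

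The 3 genes of the nicotinic acid and tryptophan routes were liver genes. Naprt (chromosome 15, 75890956 to 75894481, minus strand) was higher in CON liver than in CON muscle by a log2 fold change of 4.02 (SE 0.21, adjusted p = 5.34e-07) and lower in eWAT than in liver by −2.37 (SE 0.21, adjusted p = 5.76e-06). Qprt (chromosome 7, 127107114 to 127122226, minus strand) was higher in liver than in muscle by 4.91 (SE 0.33, adjusted p = 1.86e-06), from 267 to 1067 fragments in liver against 6 to 16 in muscle. Nadsyn1 (chromosome 7, 143795584 to 143822849, minus strand) was higher in liver than in muscle by 2.94 (SE 0.20, adjusted p = 2.02e-06). These liver differences kept their direction and call in all 18 settings. Between eWAT and muscle, Naprt (1.65) and Nadsyn1 (1.35) were called higher in eWAT as deposited, and neither was called after median-ratio scaling, at 0.74 and 0.54.

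The genes listed for the kynurenine pathway shared this pattern. Of the 8 genes, 7 were tested and all 7 were called higher in CON liver than in CON muscle. Of all genes tested there, 14.9% were called higher in liver. The median log2 fold change of the 7 was 4.65, against −0.52 over all genes. Tdo2, which opens the ring of tryptophan in liver, averaged 87.5 FPKM in CON liver, 1.74 FPKM in CON eWAT and 0.123 FPKM in CON muscle. Haao, which makes the substrate of QPRT, averaged 64.7 FPKM in CON liver, 1.21 FPKM in eWAT and 0.0707 FPKM in muscle.

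The low eWAT values of these genes stood beside hepatocyte transcripts in the CON eWAT libraries. Of the 10 hepatocyte markers, Cyp2e1 was left out here because CON eWAT itself held more of it than CON liver, 1112 against 528 FPKM. The other 9 in CON eWAT were at a median of 0.259% to 0.699% of their mean level over the 6 liver libraries, and in HSD eWAT at 0.0129% to 0.0314%. A share of that size of the liver level of Qprt comes to 0.0697 to 0.188 FPKM, against a measured 0.364 to 0.773 FPKM in the CON eWAT libraries. For Nnmt it comes to at most 0.299 FPKM, against 94.8 to 109 FPKM.

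Nnmt (chromosome 9, 48591877 to 48605153, minus strand) had 12.9, 24.3 and 26.0 FPKM in CON liver, 94.8, 109 and 106 FPKM in CON eWAT, and 1.53, 1.98 and 1.02 FPKM in CON muscle. The 3 tissues did not overlap. eWAT was above muscle by a log2 fold change of 5.71 (SE 0.28, adjusted p = 3.70e-07), and liver above muscle by 3.41 (SE 0.28, adjusted p = 6.36e-06). eWAT was above liver by 2.30 (SE 0.28, adjusted p = 4.23e-05), and by 0.66 (adjusted p = 0.0525) after median-ratio scaling.

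In muscle, Nmrk2 had the largest difference between diets of the 8 genes fitted. CON16M, CON71M and CON72M had 35.5, 51.9 and 72.5 FPKM, and HS2M, HS3M and HS5M had 10.7, 19.4 and 20.3 FPKM. Every HSD library lay below every CON library. The group means were 53.3 ± 18.5 FPKM and 16.8 ± 5.33 FPKM (SD, n = 3), a log2 fold change of −1.63 (SE 0.29), or 3.10-fold lower. Nmrk2 was chosen for this difference, so it is given without a test. Over the 16 settings tried the log2 fold change ran from −1.89 to −1.34, on these same 6 libraries. In CON muscle Nmrk2 and Nampt overlapped in level, whereas in HSD muscle every Nampt value, 40.0 to 57.2 FPKM, was above every Nmrk2 value.

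Fibre genes moved beside Nmrk2 in the same libraries. The 7 slow fibre markers were all lower in HSD muscle, with a median log2 fold change of −0.95 against −0.06 over all genes, and none was called. In muscle 35 of 10834 genes (0.323%) were called, 24 of them (0.222%) lower. Myh7, the slow myosin heavy chain, averaged 19.7 FPKM in CON and 7.26 FPKM in HSD muscle (log2 fold change −1.40, SE 0.34). Tnni1, the slow troponin I, averaged 15.8 and 6.92 FPKM (−1.10, SE 0.24). The summed level of the slow list was 230, 499 and 375 FPKM in CON16M, CON71M and CON72M and 151, 180 and 234 FPKM in HS2M, HS3M and HS5M, so HS5M lay within the CON range. Of the 8 skeletal muscle markers, the myosin genes Myh2 of type IIa fibres (−1.06, SE 0.18) and Myh1 of type IIx fibres (−1.01, SE 0.19) were called lower. Myh4, the myosin of the fastest fibres, was at 0.14 (SE 0.18), Acta1 at 0.03 (SE 0.16) and Ckm at 0.06 (SE 0.13). The part of fibre genes in the Nmrk2 values was not tested. Of 7 macrophage markers tested, 6 were below 0, with a median of −0.56. C1qa, a complement gene of macrophages, was called lower (−1.07, SE 0.15), and Cd163 was at 0.32 (SE 0.19). The 5 blood markers were below 0, with a median of −1.07, and none was called. The part of these cells was likewise not tested.

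**Figure D2:**
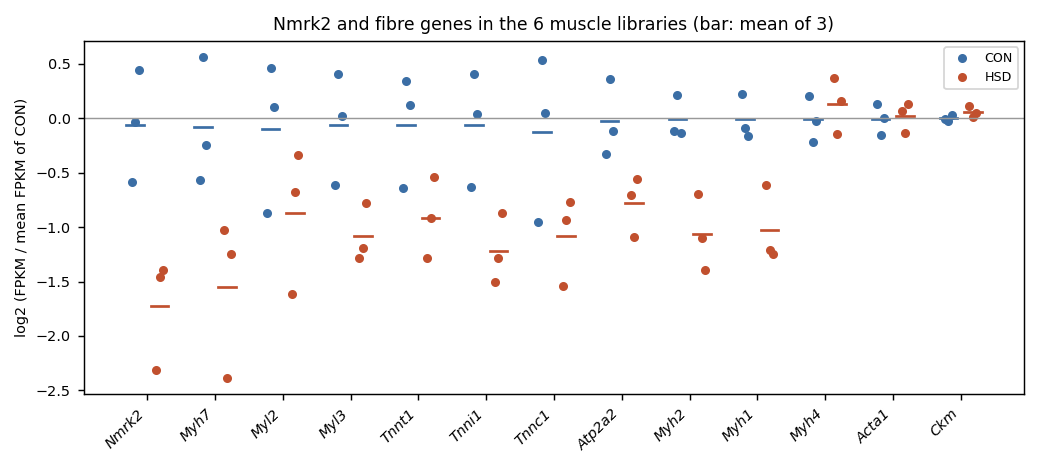
Log2 ratio of FPKM to the CON mean in the 6 muscle libraries, for Nmrk2, 7 slow fibre genes, the myosin genes Myh2 and Myh1, and Myh4, Acta1 and Ckm, with 1 point per library and bars at the mean of 3. Nmrk2, Myh7, Myh2 and Myh1 lie lower in all 3 HSD libraries, while Myh4, Acta1 and Ckm overlap between diets.

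The genes whose levels ran closest to Nmrk2 over the 18 libraries, by Pearson's r on log2(FPKM + 0.5) among 9504 genes with a mean of at least 1 FPKM in muscle, were Smco1 (r = 0.991), Dupd1 (0.991), Lsmem1 (0.990), Tceal7 (0.989) and Gm572 (0.989). That order reflects tissue, since Nmrk2 is at or near 0 outside muscle. After the mean of each group of 6 libraries of a tissue was removed, the closest were Tnni1 (0.948), Dupd1 (0.947), Lsmem1 (0.946), Atp1b4 (0.928) and Smco1 (0.925). When CON16L was left out, a choice made after seeing the data, they were Smco1 (0.913), Gdap1 (0.912), Klhl40 (0.903), Tnni1 (0.884) and Lingo3 (0.873). The points share libraries and depth, and no p is attached to these values. Removing the tissue mean left the difference between diets in place. Nmrk2 was chosen for that difference in muscle, so genes lower in HSD muscle can rank high through it alone. The same measure of deviations over all 18 libraries was taken for Nnmt and Nampt. Closest to Nnmt, among 12421 genes with a mean of at least 1 FPKM in eWAT, were C130074G19Rik (0.930), Akr1c14 (0.922) and Nudt18 (0.922). Closest to Nampt, among the 9504 genes with such a mean in muscle, were Rapgef5 (0.871), Dkc1 (0.851) and Orc3 (0.832).

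The other 8 genes differed less in muscle, and their values are a description for the same reason. Nampt averaged 39.8 ± 4.09 FPKM in CON and 46.6 ± 9.32 FPKM in HSD muscle, with HS3M highest at 57.2 FPKM and overlapping groups (log2 fold change 0.21, SE 0.16). Naprt had 1.9, 1.77 and 1.64 FPKM in CON and 1.22, 0.920 and 1.38 FPKM in HSD muscle, from 28 to 59 fragments. The Naprt groups, like those of Nmrk2, did not overlap, with HSD lower (−0.45, SE 0.15), as was so for 15.6% of all genes tested in muscle. Nmrk1, the paralog of Nmrk2, averaged 1.93 ± 0.298 FPKM and 1.69 ± 0.288 FPKM (−0.15, SE 0.15). Nmnat1 (−0.08, SE 0.12), Nmnat3 (−0.17, SE 0.13), Nadsyn1 (−0.20, SE 0.15) and Nnmt (−0.37, SE 0.29) overlapped between diets. Qprt, at 0.170 to 0.456 FPKM, was under the filter of a mean of 0.5 FPKM and was not fitted.

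In liver, Nnmt was the gene whose diet groups separated in the deposited values. CON14L, CON16L and CON72L had 12.9, 24.3 and 26.0 FPKM, and HS2L, HS4L and HS5L had 63.8, 81.0 and 48.6 FPKM. All 3 HSD libraries were above all 3 CON libraries. The means were 21.1 ± 7.13 FPKM and 64.5 ± 16.2 FPKM (SD, n = 3), a log2 fold change of 1.62 (SE 0.40) or 3.08-fold higher. The difference did not pass the test over all genes (limma, adjusted p = 0.764). Over the alternatives the adjusted p ranged from 0.0635, with the 4 liver libraries the study itself used, to 1.000, and the log2 fold change from 1.09 to 1.94. No gene was called in liver (0% of 10317), 592 genes (5.74%) had an unadjusted p under 0.05, and the groups did not overlap with HSD higher for 8.62%. When FPKM was recomputed as a share of the fragments outside mitochondrially encoded genes, Nnmt had 32.9, 32.7 and 41.8 FPKM in CON and 76.2, 95.7 and 87.4 FPKM in HSD liver, and the groups stayed apart. On that scale Nmnat1 also separated, in the other direction, with 6.28, 5.98 and 7.52 FPKM in CON and 4.87, 5.10 and 5.40 FPKM in HSD liver. Its log2 fold change without mitochondrially encoded genes was −0.50 and was not called. The median over all genes also fell below 0 when those genes were left out. The share of all genes that separated on that scale was not counted, so the separation of Nmnat1 says little about the gene.

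**Figure D3:**
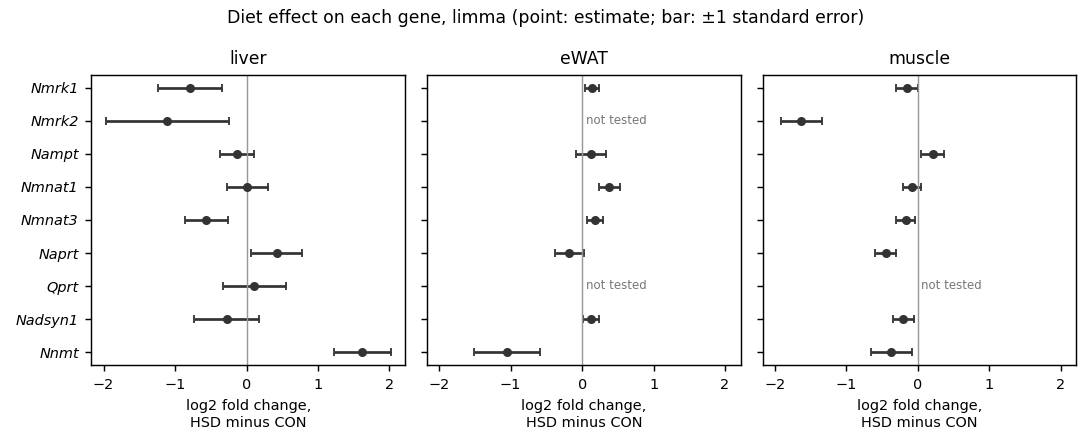
Log2 fold change of HSD minus CON for each of the 9 genes in liver, eWAT and muscle, with bars of 1 standard error of the limma fit. Nnmt lies at 1.62 in liver and −1.05 in eWAT, Nmrk2 at −1.63 in muscle, and Nmrk2 and Qprt in eWAT and Qprt in muscle were under the filter and not fitted.

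The liver levels of Nmrk1 and Nadsyn1 ran with the mitochondrial share of the library. Nmrk1 had 19.4, 10.1 and 15.2 FPKM in CON14L, CON16L and CON72L and 8.27, 4.41 and 14.3 FPKM in HS2L, HS4L and HS5L. The groups overlapped through HS5L (log2 fold change −0.79, SE 0.45, adjusted p = 0.764). Ordered by mitochondrial share, the libraries were CON14L (60.8%), HS5L (44.4%), CON72L (37.8%), CON16L (25.7%), HS2L (16.3%) and HS4L (15.4%), and Nmrk1 followed that order but for an exchange of HS5L and CON72L. Nadsyn1 had 13, 7.34 and 12.5 FPKM in CON and 7.75, 4.98 and 16.3 FPKM in HSD liver (−0.28, SE 0.46, adjusted p = 0.858), again with the 3 libraries of highest mitochondrial share above the other 3. Nnmt ran nearly the opposite way across libraries. The part of the mitochondrial share in these values was not tested.

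With the study's 4 liver libraries alone (CON14L, CON72L, HS2L and HS4L), Nmrk1 was lower on HSD by a log2 fold change of −1.43 (SE 0.38, adjusted p = 0.0734), Nadsyn1 by −0.98 (SE 0.34, adjusted p = 0.103) and Nnmt higher by 1.94 (SE 0.47, adjusted p = 0.0635). None was called. In that set the CON libraries were those with shares of 60.8% and 37.8%, and the HSD libraries those with 16.3% and 15.4%, so diet and mitochondrial share cannot be told apart.

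**Figure D4:**
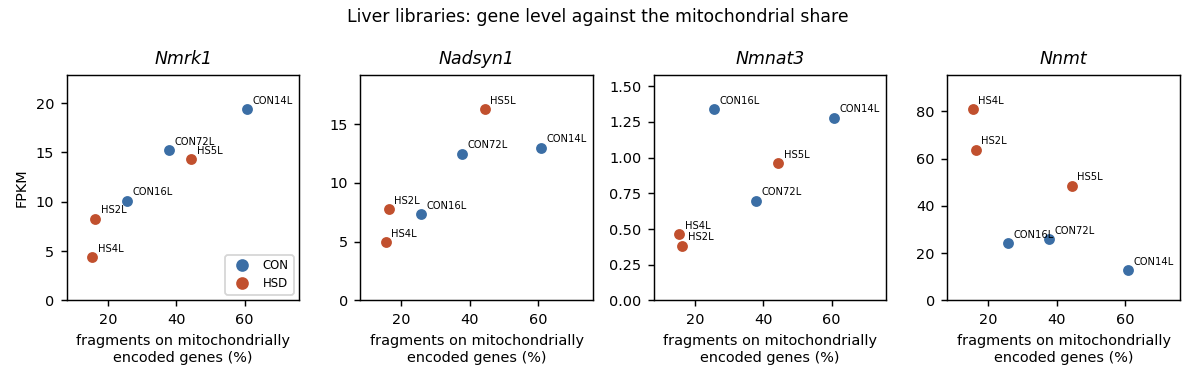
FPKM of Nmrk1, Nadsyn1, Nmnat3 and Nnmt in the 6 liver libraries against the percentage of fragments on mitochondrially encoded genes, CON in blue and HSD in orange. Nmrk1 and Nadsyn1 are lowest in HS4L at 15.4% and high at shares of 37.8% and above, and the 3 HSD points of Nnmt, 48.6 to 81.0 FPKM, lie above the 3 CON points.

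The remaining liver genes overlapped between diets in the deposited values. Naprt averaged 37.1 ± 10.8 FPKM in CON and 48.3 ± 4.35 FPKM in HSD (log2 fold change 0.42, SE 0.36, adjusted p = 0.764), with CON14L lowest at 24.7 FPKM. Qprt averaged 26.7 ± 11.7 and 27.1 ± 6.27 FPKM (0.11, SE 0.44, adjusted p = 0.946), and CON14L was again lowest, at 13.2 FPKM. CON14L also had the lowest summed hepatocyte markers, 17102 FPKM against 39643 to 88509 FPKM in the other 5 liver libraries. Nampt averaged 8.78 ± 0.677 and 8.0 ± 0.953 FPKM (−0.13, SE 0.24, adjusted p = 0.877). Nmnat1 averaged 3.86 ± 1.22 and 3.80 ± 0.698 FPKM (0.01, SE 0.29, adjusted p = 0.995). Nmnat3 averaged 1.11 ± 0.355 and 0.601 ± 0.312 FPKM (−0.56, SE 0.30, adjusted p = 0.764), from 20 to 78 fragments. Nmrk2 passed the filter in liver through CON16L alone (log2 fold change −1.11, SE 0.86) and was at 0 in the other 5 liver libraries.

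In eWAT, Nnmt lay on the other side of its control. CON16W, CON71W and CON72W had 94.8, 109 and 106 FPKM, and HS2W, HS3W and HS5W had 58.0, 23.9 and 87.2 FPKM. All 3 HSD libraries were below all 3 CON libraries, as was so for 12.4% of all genes tested in eWAT. HS3W, the library with epididymal markers, was lowest. The means were 103 ± 7.47 FPKM and 56.4 ± 31.7 FPKM (SD, n = 3), a log2 fold change of −1.05 (SE 0.46, adjusted p = 0.321). Without HS3W the log2 fold change was −0.53 (adjusted p = 0.120), and with the study's 5 eWAT libraries, which leave out HS5W, it was −1.46 (adjusted p = 0.183). Relative to the mean of 8 adipocyte markers, a comparison added after seeing the data, Nnmt stood at −3.46, −3.38 and −3.39 on the log2 scale in CON and at −4.19, −3.91 and −3.64 in HSD eWAT, a smaller difference of −0.50, without overlap. On that scale Nmrk1 (0.69), Nampt (0.68) and Nmnat1 (0.93) also did not overlap, with HSD higher. So did Nmrk2 (0.89), which had 0 fragments in CON, so its CON values there are the pseudocount less the markers. The marker mean itself differed by −0.55 (HSD minus CON), which raises any gene in HSD on this scale. The share of all genes that did not overlap on it was not counted, so these separations say little about the genes. The mean of the adipocyte markers was 8.52 in HS3W and 10.03 to 10.15 in the other 5 eWAT libraries.

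The diet effect on Nnmt in liver exceeded that in eWAT by 2.67 on the log2 scale (SE 0.62, limma, adjusted p = 0.185) in a test of the difference itself over 12 libraries. It was not called with all libraries, where 1 of 13252 genes (0.00755%) was called. With the study's libraries alone the difference was 3.39 (SE 0.62, limma, adjusted p = 0.0409) and was called, as 1 of 458 genes called among 13360 tested. In the liver libraries of that set diet and mitochondrial share cannot be told apart. The study's set was the only 1 of 23 settings in which the difference in Nnmt was called.

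Among the other genes in eWAT, Nmnat1 had 2.98, 3.09 and 3.52 FPKM in CON and 5.24, 3.91 and 3.90 FPKM in HSD libraries. The HSD libraries lay above the CON libraries (log2 fold change 0.38, SE 0.15, adjusted p = 0.278). Nmrk1 (0.14, SE 0.10, adjusted p = 0.496) and Nmnat3 (0.18, SE 0.11, adjusted p = 0.412) also did not overlap, at 2.92 to 3.19 FPKM against 3.22 to 3.54 FPKM and 2.85 to 3.20 FPKM against 3.24 to 3.64 FPKM. Thus 3 of the 7 genes tested did not overlap with HSD higher and 1 with HSD lower, and such separations were common in eWAT, at 16.2% and 12.4% of all genes. No gene was called in eWAT (0% of 13740), and 2298 genes (16.7%) had an unadjusted p under 0.05. The study, with DESeq2, reported genes past the same cutoffs in every tissue, most in eWAT and fewest in muscle. The absence of calls in liver and eWAT therefore holds only for the fits made here. Nampt averaged 30.5 ± 1.69 FPKM in CON and 34.4 ± 9.14 FPKM in HSD, with HS2W and HS5W at 40.0 and 39.4 FPKM and HS3W at 23.9 FPKM. Without HS3W its log2 fold change was 0.37 (adjusted p = 0.0422), under the fold needed for a call. Naprt (−0.18, SE 0.20) and Nadsyn1 (0.12, SE 0.11) overlapped between diets.

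Nmrk2 in HSD eWAT had 3, 6 and 1 fragments in HS2W, HS3W and HS5W, or 0.119, 0.263 and 0.0412 FPKM, where CON eWAT had none. These counts are at or near the limit that a count of 0 allows, and the gene was not fitted there. Skeletal muscle markers in the same libraries summed to 37.3, 43.4 and 26.9 FPKM in HSD against 15.7, 8.35 and 7.64 FPKM in CON eWAT. Qprt in eWAT, at 9 to 31 fragments, had 0.364 to 0.773 FPKM in CON and 0.249 to 0.369 FPKM in HSD and was also under the filter.

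The rest of the NAD network was described by 6 lists of 50 genes, and none of them was called in any of the 3 diet comparisons. Not all of them passed the filter in each tissue. Few genes of any kind were called, 0% in liver and eWAT and 0.323% in muscle, so this says little about the lists. In liver, 6 of 7 kynurenine genes tested had a positive log2 fold change, with a median of 0.47 against 0.13 over all genes. Kynu, which cleaves kynurenines, averaged 12.3 FPKM in CON and 28.4 FPKM in HSD liver (1.14, SE 0.32, adjusted p = 0.764). The 8 genes of nicotinamide oxidation and the methyl donor cycle, which supplies the methyl group used by NNMT, had a median of 0.70 in liver. Mat1a, the S-adenosylmethionine synthetase of hepatocytes, averaged 190 FPKM in CON and 581 FPKM in HSD liver (1.64, SE 0.58, adjusted p = 0.764), without overlap. The 10 hepatocyte markers had a median of 0.88 in the same comparison, and their part in these values was not tested. Of the NAD consumers, 7 of 11 were below 0 in liver, with Parp10 at −0.76 (SE 0.28, adjusted p = 0.764).

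In eWAT, Mat1a (−1.73, SE 0.32, adjusted p = 0.124) was at 1.65 FPKM in CON and 0.126 FPKM in HSD, beside the lower hepatocyte transcripts of the HSD libraries. The sirtuin genes Sirt4 (0.65, SE 0.20, adjusted p = 0.218) and Sirt1 (0.37, SE 0.13, adjusted p = 0.249) were the 2 of 7 sirtuins with an unadjusted p under 0.05, where 16.7% of all genes had one. Slc25a17, a peroxisomal carrier of NAD and other cofactors, was at −0.44 (SE 0.10, adjusted p = 0.156). In muscle, all 11 NAD consumers tested were below 0, with a median of −0.21 against −0.06 over all genes and Parp9 at −0.40 (SE 0.14). No kynurenine gene reached a mean of 0.5 FPKM in muscle.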

How the data were processed

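FPKM values per gene and library were deposited by the authors, who had used cutadapt for trimming, HISAT2 against mm10 for alignment and cuffdiff with an Ensembl annotation for quantification. Per the labels, the submitters' processing notes also name HTSeq 0.9.1 and the build mm9. Gene positions were taken from GENCODE M21 (GRCm38), matched by gene ID. All 18 columns were used. The deposited FPKM gave whole fragments, within 0.01, in all 18 libraries for 18319 of 18789 expressed genes (97.5%). Gene lengths were taken from GENCODE exons. Fragments of a gene are those recovered counts. Library totals are the totals implied by the FPKM scaling and exceed the fragments recovered on these genes. Limits on counts of 0 cover counting error only.

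The 9 genes and all lists were chosen with earlier results of these data known. Diet was tested within each tissue with limma 3.58.1 in R 4.3.3 on log2(FPKM + 0.5). Genes entered when their mean over the fitted libraries reached 0.5 FPKM. The fit used a trended prior and Benjamini-Hochberg adjustment over all genes tested. Calls needed an adjusted p under 0.05 together with a change of 1 or more on the log2 scale, up or down. A fold change on this scale understates that of low genes. CON tissues, and the difference between the liver and eWAT diet effects, were fitted with the mouse as a random block, whose correlation was estimated once (0.0709 and 0.00551) and reused in the alternatives. All 6 libraries of a tissue entered; the study's own set, without CON16L and HS5L in liver and HS5W in eWAT, was an alternative, as were other pseudocounts (0.1, 1) and filters, median-ratio scaling, leaving out mitochondrial genes, no prior trend, voom on the recovered fragments (the count test; DESeq2 and edgeR were not used), the replicate block and leaving out each library.

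Replicate numbers from the titles were checked for pairing by the correlation of deviations from group means. In muscle the same-numbered pairs gave 0.383, 0.177 and 0.184, and the unmatched pairs ran from −0.347 to 0.180, so pairing was not settled. In liver (−0.473, 0.395, −0.213) and eWAT (−0.197, 0.061, 0.414) the same-numbered pairs differed in sign. The main diet fits held diet alone, and the replicate number entered only as an alternative. The genes named were the 9 in every comparison and, by list, up to 4 called genes of largest change or, where none was called, the gene of smallest p; Tdo2 and Haao levels, Sirt1 and the fibre genes were named after their values were seen. Python 3.11.15 with pandas 2.3.3 and matplotlib 3.10.9 was used, and the fits were tested on simulated data.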

Additional observations from a re-analysis of the deposited data

Results flagged for a closer look

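Nnmt was higher in all 3 HSD liver libraries and lower in all 3 HSD eWAT libraries than in every CON library of the tissue, a difference between the 2 diet effects of 2.67 on the log2 scale. The test of that difference gave an adjusted p of 0.185 with all libraries (limma). Groups did not overlap for 8.62% of all genes in liver with HSD higher, and for 12.4% in eWAT with HSD lower. HS3W, with epididymal markers, and the liver mitochondrial shares stand beside the Nnmt values, and their part was not tested.

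With 3 libraries per group no library was tested for lying apart.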

How the results depend on the processing

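With 3 libraries per group, 0 of the 9 genes were called by diet in liver or eWAT under any alternative. The shallowest library, in liver, held 7628072 fragments, which limits low genes such as Nmnat3 there. In muscle the count of called genes, 1 as reported, was 0 without the filter on low FPKM and 0 with median-ratio scaling, and ranged from 0 to 1 when single libraries were left out (0 without CON71M, CON72M, HS3M or HS5M). Nmrk2 was chosen on this contrast, so these counts support nothing about it. The count for the difference between liver and eWAT diet effects, 0 as reported, was 1 with the study's libraries alone, which was Nnmt. The cause was not tested.

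Log2 fold changes turned sign in these cases. In liver, Nmnat1 (0.01) was −0.08 with median-ratio scaling, −0.50 without mitochondrially encoded genes, −0.34 with voom and from −0.25 to 0.15 with single libraries left out. Qprt (0.11) was −0.43 without mitochondrially encoded genes, −0.23 with voom and from −0.32 to 0.36 with single libraries left out. Naprt (0.42) was −0.13 without mitochondrially encoded genes, and Nadsyn1 (−0.28) ranged from −0.73 to 0.08 with single libraries left out. Leaving out mitochondrially encoded genes moved the median of all genes in liver from 0.13 to −0.37. In eWAT, Naprt ranged from −0.34 to 0.03 with single libraries left out. Between CON tissues, Nmnat1 in liver against muscle was 0.05 without mitochondrially encoded genes, and median-ratio scaling gave −0.28 for Nmrk1 and −0.14 for Qprt in eWAT against muscle and −0.12 for Nmnat3 in eWAT against liver. With single libraries left out, Nmnat3 in eWAT against muscle ranged from −0.08 to 0.03 and Nmrk2 in eWAT against liver from −1.73 to 0.02.

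The replicate block changed no call among the 9 genes (0 in liver, 0 in eWAT, 1 in muscle); over all genes in muscle it gave 54 calls in place of 35. Over all genes voom gave 78 calls in muscle, no filter 7, leaving out mitochondrially encoded genes 58, and single libraries left out from 10 to 61. In eWAT, 160 genes were called without HS3W, and in liver 35 with the study's libraries. For the liver and eWAT difference, 65 genes were called with a pseudocount of 0.1, 3 without the filter and 25 without mitochondrially encoded genes, against 1 as reported. Of 1006 alternative values of single genes, 966 kept their direction and their side of the threshold or, in muscle, moved by less than 1 SD between libraries. Proteins and NAD itself were not measured.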
